A study of Drosophila melanogaster with 2 samples.

Results

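Binding of mod(mdg4), a BTB-domain chromatin protein known as a partner of insulator proteins, was mapped at 10 genes that drive or restrain the cell cycle in Drosophila melanogaster. The genes were E2f1, Dp, Rbf, CycE, CycA, CycB, CycB3, stg, dap and fzr. They were chosen by name, with earlier results of these data known, among 13945 protein-coding genes of the chromosome arms. Their members are all summits that lie in the gene span or within 5 kb of it and belong to the dm6 peak list that passed the irreproducible discovery rate (IDR) threshold. That list holds 6294 peaks, of which 6273 lie on the arms, and 36 summits fell in the 10 gene windows. The material was 1 group of 2 biological replicates, numbered 3 and 4, of whole wandering larvae of the third instar with both sexes pooled. All animals came from a single transgenic line that makes mod(mdg4) with GFP at its C-terminus, and chromatin sheared to 200 to 800 bp was precipitated with an antibody against GFP. Binding was read through the tagged protein alone, the sources used here do not give the promoter that drives it, and there is no second condition. The values are peak signals, the enrichment over a control library that the authors' peak caller gave, so the number of reads is unknown.

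E2f1 and Dp form the heterodimer that activates genes of DNA replication, and Rbf, the fly retinoblastoma protein, binds the heterodimer and holds it inactive. CycE with its kinase starts S phase, and dap encodes the inhibitor of that kinase. CycA, CycB and CycB3 are the mitotic cyclins, stg encodes the Cdc25-type phosphatase that triggers mitosis, and fzr activates the anaphase-promoting complex, which destroys mitotic cyclins and is needed for the switch to endocycles. In wandering larvae, imaginal disc cells and neuroblasts divide while most larval tissues grow by endocycles, and whole animals mix both.

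Of the 10 genes, 9 had at least 1 thresholded summit in their window and Rbf had none. The share of all protein-coding genes with 1 or more was 47.2%, and genes were not matched for window length. A promoter summit, defined here as one within 500 bp of an annotated start of the gene, was present at 6 of the 10 genes (60.0%), namely E2f1, Dp, CycE, CycB3, dap and fzr. The background was 18.7% of all protein-coding genes. Because the 10 genes were chosen with earlier results of these data known, these shares are descriptive and test nothing. Among 88 other cell cycle genes, described further on, the share was 19.3%. Start sites are part of the promoter count. Among genes with several annotated starts the background was 34.7%, with 4 of 6 members. Among genes with 1 start it was 13.0%, with 2 of 4 members. The call turned on small distances at a pair of genes. The CycE summit lay 479 bp from a start, just inside the limit, and the nearest stg summit lay 533 bp away, just outside. E2f1, Dp, CycB3 and fzr each had 2 or more promoter summits, against 3.43% of all protein-coding genes. The pair at CycB3 lay in overlapping peaks and the pair at fzr in adjoining ones, so the summits of each pair may not be independent. The weaker summits of these pairs stood at places 3983 (CycB3) and 1232 (fzr) in replicate 3. In replicate 4 they stood at places 12437 and 12947. E2f1, Dp and fzr have several annotated starts, and the 3.43% was not split by number of starts.

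**Figure D1:**
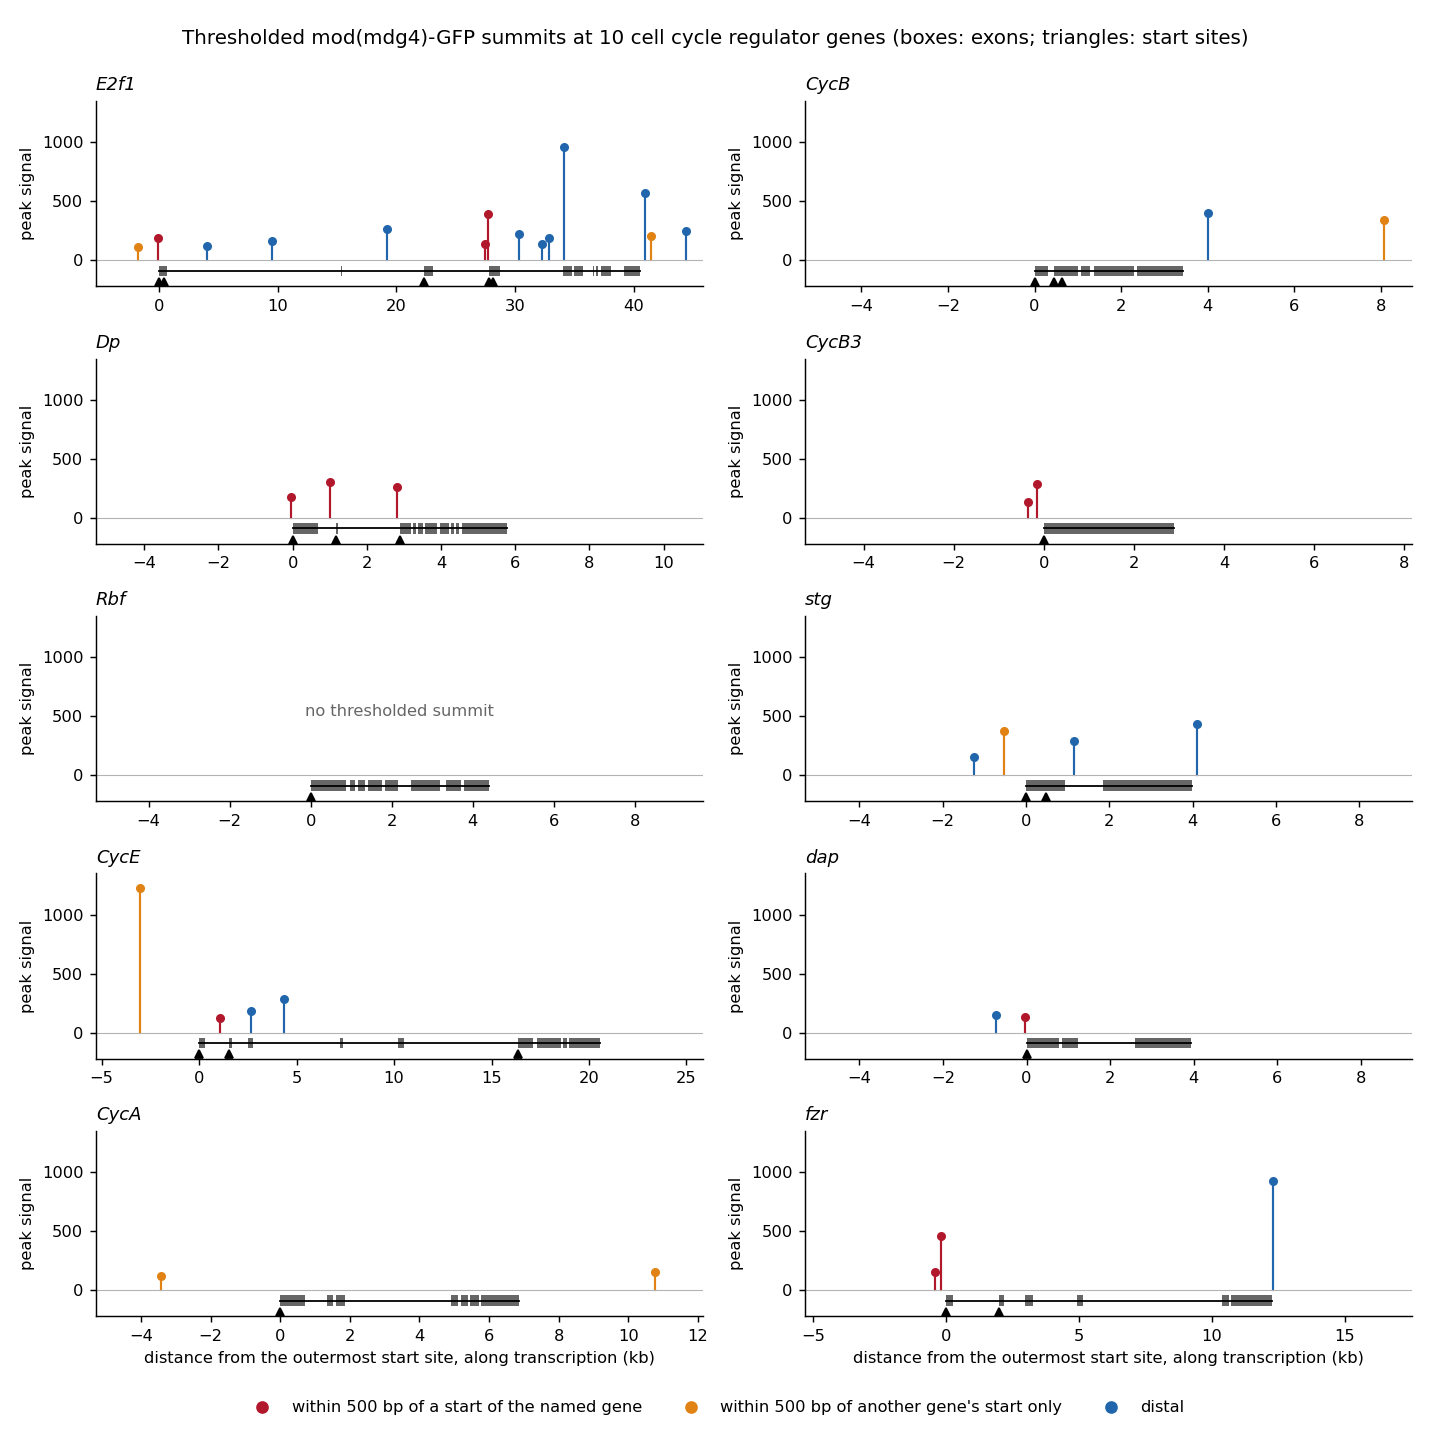
Each panel plots the deposited peak signal of every thresholded summit (vertical line with a dot, linear axis from 0) against the distance in kb from the outermost start of 1 gene along its transcription. Boxes are annotated exons and triangles annotated starts, drawn below the zero line. Red summits lie within 500 bp of a start of the named gene, orange ones within 500 bp of another gene's start only, and blue ones are distal. E2f1 carries 14 summits, and the highest lines at CycE (1228.5) and fzr (926.0) stand outside the gene.

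The 36 summits were denser than those of the arms as a whole. They stood at 17.6 per 100 kb of window, against 4.69 per 100 kb of arm sequence. The arm figure also counts sequence outside gene windows. A density over the windows of all genes was not computed, so the gap cannot be credited to these genes. The median signal of the 36 summits was 214.3 (quartiles 148.8 and 352.7), against 185.6 (quartiles 141.5 and 277.9) for all arm peaks. The strongest 10% of arm peaks, with a signal of 437.3 or more, held 6 of the 36 (16.7%). The median of the 17 distal member summits was 250.6, against 176.3 for all distal arm peaks. At the 12 promoter summits of the members it was 182.9, and at 7 summits within 500 bp of another gene's start only it was 203.0, against 199.1 for all promoter peaks of the arms. E2f1 supplied 14 of the 36, and without it the density was 14.3 per 100 kb and the median signal 272.8 over 22 summits.

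By place, 15 summits lay inside the gene spans, 13 in the upstream flanks and 8 in the downstream flanks. There were 17 summits between protein-coding genes (47.2%), where 40.7% of arm summits lay, and 16 in introns (44.4%), where 47.9% of arm summits lay. In 5′ UTRs there were 3 (8.33%, with 7.30% on the arms). Coding exons and 3′ UTRs held 0 member summits, and 0.574% and 3.57% of those on the arms. The nearest protein-coding start was that of the member itself for 23 summits and of a neighbour for 13. Within 500 bp of any protein-coding start there were 19 (52.8%), against 42.0% of all arm summits.

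**Figure D2:**
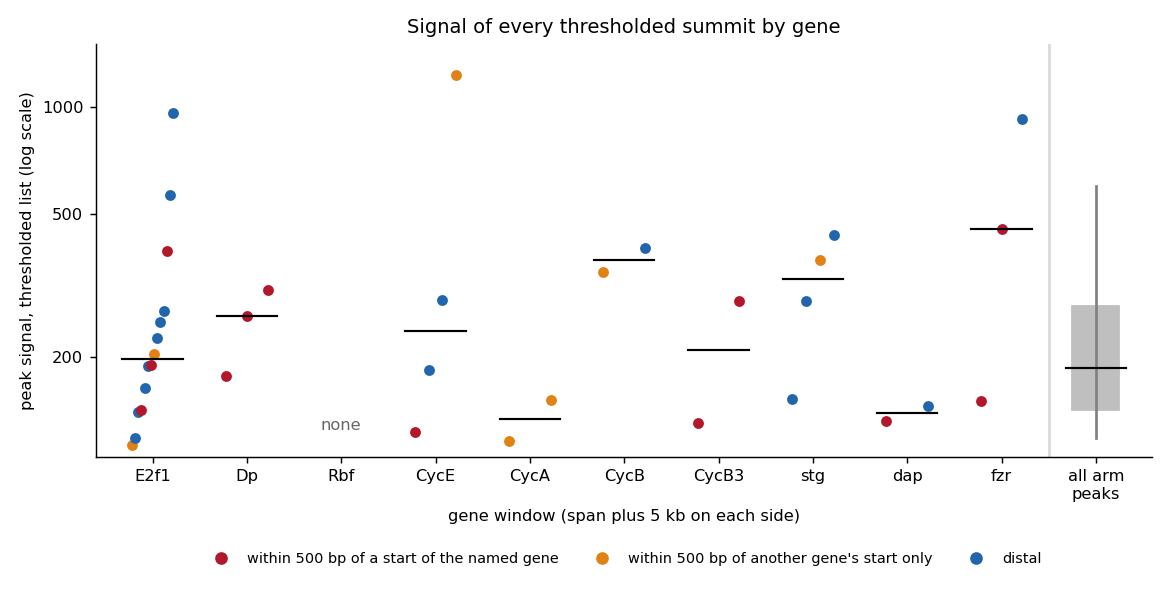
Dots give the signal of each thresholded summit (log axis) in the window of each gene, coloured by place as in the locus maps, and black lines give medians. The last column shows all arm peaks with their median (185.6), quartiles (box) and the range from 118.3 to 598.9 that holds all but the outer 5% on each side (line). CycA and dap stay below that median, while CycB lies above the upper quartile.

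E2f1 (FBgn0011766, chr3R:21620304-21660871, minus strand), which encodes the activating E2F subunit, had the most summits of the 10 genes. The E2f1 window, at 50.57 kb, was the longest of the 10, and the counts were not adjusted for length. Its 14 summits spanned signals of 113.2 to 960.7. Of 13945 protein-coding genes, 17 (0.122%) had at least as many summits in their span and 5 kb flanks. The strongest, at chr3R:21626568-21626849, held place 113 of the thresholded list with 960.7. It lay not at a start but in a 5′ UTR exon shared by all 6 annotated transcripts, 5971 bp downstream of the nearest start. Replicates 3 and 4 gave it signals of 521.1 and 429.0, at places 139 and 101 of their lists of 29999 peaks each. The summits in these replicates lay 0 and 2 bp from the thresholded one.

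The 5 annotated E2f1 starts were not alike. The start of E2f1-RA and E2f1-RE had a summit of 395.1 at 82 bp upstream (chr3R:21633081-21633217), with signals of 237.4 and 173.9 in replicates 3 and 4. A second summit of 141.8 lay 288 bp upstream in an overlapping peak, so the pair is not independent. The outermost start, of E2f1-RF, had one of 189.7 at 93 bp upstream, with replicate signals of 90.9 and 100.3. The start of E2f1-RD had no nearer summit than that of 395.1, at 462 bp. The starts of E2f1-RB and E2f1-RC had no summit within 500 bp, their nearest lying 532 and 3124 bp away. Between the promoter proximal to the coding sequence and the strong UTR summit, a single intron held 3 more, with 225.5, 140.3 and 188.7. The long upstream introns held 268.8, 163.4 and 118.1.

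Downstream of E2f1 the window reached the insulin receptor gene InR, and 3 summits there were closer to InR than to any E2f1 start. They carried 568.1 (chr3R:21619781-21620065, 621 bp from the InR start), 203.0 (61 bp) and 250.6 in an InR intron. The summit of 203.0 had a peak at place 1439 of the replicate 4 list and overlapped no peak of replicate 3. The weakest member summit of all, 113.2, lay at Archease, 330 bp from its start, and stood at place 6291 of 6294. The sequences at the outermost E2f1 start and at the stronger InR summit are shown because both lie outside annotated exons. Capitals mark matches to the motifs named further on, and each line is a stretch of the RefSeq Release 6 (dm6) sequence around the summit, ended where an exon begins.
E2f1 outermost start, chr3R:21660872-21661064, plus strand: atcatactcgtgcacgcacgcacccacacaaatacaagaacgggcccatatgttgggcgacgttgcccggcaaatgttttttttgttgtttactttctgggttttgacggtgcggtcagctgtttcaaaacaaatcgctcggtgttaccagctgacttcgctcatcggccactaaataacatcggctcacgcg
E2f1 downstream flank, chr3R:21619842-21620042, plus strand: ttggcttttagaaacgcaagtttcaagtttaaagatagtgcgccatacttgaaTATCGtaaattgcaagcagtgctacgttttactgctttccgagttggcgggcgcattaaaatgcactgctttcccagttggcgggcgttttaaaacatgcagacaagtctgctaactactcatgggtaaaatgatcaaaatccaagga
The first holds none of the motifs searched, and the capitals of the second are the BEAF-32 element.

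Dp (FBgn0011763, chr2R:13222433-13228202, plus strand), the partner of E2f1, had a summit near each of its 3 annotated starts. They lay 49, 153 and 74 bp upstream, with signals of 176.1, 306.9 and 259.5. Replicate 3 gave 88.1, 166.9 and 135.8 at these summits, and replicate 4 gave 87.1, 138.5 and 78.8. Both replicates thus had the middle start highest. The outermost summit fell in the 5′ UTR of the divergent neighbour Fsn, an F-box protein gene whose start is 46 bp away, so it belongs to both genes. All 3 peaks overlapped the strongest 6294 peaks of each replicate.

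Rbf (FBgn0015799, chrX:797090-801479, minus strand) was the only member whose window held no thresholded summit. The pooled list of 29999 peaks, which reaches below the threshold, held none there either. Replicate 3 alone had a peak in the window, at chrX:796319-796742 with a signal of 223.9 at place 924. Its summit lay 559 bp past the 3′ end of Rbf in an annotated 3′ UTR, and replicate 4 had no peak in the window. Of the 6274 arm peaks among the strongest 6294 of replicate 3, 147 (2.34%) likewise overlapped no peak of replicate 4 or of the pooled list. The nearest thresholded summit to the Rbf start was 21998 bp away.

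CycE (FBgn0010382, chr2L:15727581-15748150, minus strand), the S phase cyclin gene, had 3 summits inside its span and 1 strong summit beside it. The inner ones were 123.3 at 479 bp upstream of the middle start, 182.9 in a 5′ UTR exon of CycE-RD and 288.1 in an intron 2837 bp downstream of that start. Replicates 3 and 4 gave 83.7 and 47.4 for the first, 133.4 and 76.6 for the second and 182.3 and 105.8 for the third. The replicate 4 peak matched to the second had its summit 239 bp away, beside a pooled peak of 108.6 below the threshold. Its value of 76.6 may thus belong to that peak. By these matched values, the order of the 3 was the same in both replicates. The outermost start had no summit within 500 bp, and the summit nearest to the innermost was 11989 bp away.

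The strongest of all 36 member summits stood 3014 bp upstream of the outermost CycE start, at chr2L:15750985-15751354. It had a signal of 1228.5, place 52 of the thresholded list and places 61 and 62 in replicates 3 and 4, with signals of 711.4 and 508.5. It lay 86 bp from the start of ND-B17, a gene of a mitochondrial complex I subunit, and so is a promoter summit of that gene and not of CycE. Its sequence is shown as that of the strongest summit, and it is the only member window with both a Motif 1 core and a su(Hw) core, both in capitals.
CycE upstream flank, chr2L:15751079-15751264, plus strand: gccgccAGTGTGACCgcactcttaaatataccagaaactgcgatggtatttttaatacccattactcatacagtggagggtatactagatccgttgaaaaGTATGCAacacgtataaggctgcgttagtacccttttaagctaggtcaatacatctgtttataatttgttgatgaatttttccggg
The Motif 1 core lay 75 bp to the left of the summit and the su(Hw) core 18 bp to its right, by their centres.

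dap (FBgn0010316, chr2R:9712321-9716256, plus strand), the gene of the CDK inhibitor, had weak summits only. One of 132.2 lay 30 bp upstream of its single start and one of 145.5 lay 724 bp upstream. The start summit gave 61.2 in replicate 3 at place 7990 and 66.2 in replicate 4 at place 4673. Its peak overlapped one of the strongest 6294 peaks in replicate 4 and none in replicate 3, where the best summit within 500 bp of the start stood at place 6305 with 72.5. The summit at 724 bp gave 73.8 and 74.1 in replicates 3 and 4, and both dap summits were below the arm median.

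Among the mitotic cyclins, CycB3 had promoter summits and CycA and CycB did not. CycB (FBgn0000405, chr2R:22803521-22806948, minus strand) was bound beyond its 3′ end. A summit of 401.7 (chr2R:22802853-22803058) lay 573 bp past the end of the gene, with 240.6 and 154.1 in replicates 3 and 4. The other, of 345.7, lay 225 bp from the start of blw, which encodes a subunit of ATP synthase, with 215.8 and 122.0 in the replicates. At the CycB starts the pooled list had 102.8 at 22 bp upstream, at place 7131. Among the strongest 6294 peaks, replicate 3 had a promoter summit of CycB, with 84.3 at place 5074. The best replicate 4 summit near a start stood at place 14131 with 29.2, so the replicates differed on this gene.

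CycB3 (FBgn0015625, chr3R:24867934-24870816, minus strand) had 286.1 at 143 bp upstream of its start (chr3R:24870751-24871166), with 176.0 and 100.9 in replicates 3 and 4. A second summit of 130.4 followed at 345 bp in an overlapping peak, with 99.2 and 32.2 in the replicates. CycA (FBgn0000404, chr3L:11826719-11833578, minus strand) had 2 summits in its flanks, both near starts of other genes. They were 151.2 at 33 bp from the start of RpL10Ab, a ribosomal protein gene, and 116.4 at 283 bp from that of CG43064. The replicates gave 72.2 and 84.7 for the first and 70.4 and 59.3 for the second. Neither peak overlapped one of the strongest 6294 peaks of replicate 3. Near the CycA start, the pooled list held a peak of 99.6 at 362 bp upstream, at place 7448 and thus below the threshold.

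The sequence at CycB3 is shown for its Motif 1 core and that of the CycA flank for the only DRE among the members, with matches in capitals.
CycB3 start, chr3R:24870859-24871059, plus strand: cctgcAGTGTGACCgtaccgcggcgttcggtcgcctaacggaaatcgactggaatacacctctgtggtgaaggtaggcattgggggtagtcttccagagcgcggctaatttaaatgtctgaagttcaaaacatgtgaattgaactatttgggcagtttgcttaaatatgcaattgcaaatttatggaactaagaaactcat
CycA downstream flank, chr3L:11822718-11822850, plus strand: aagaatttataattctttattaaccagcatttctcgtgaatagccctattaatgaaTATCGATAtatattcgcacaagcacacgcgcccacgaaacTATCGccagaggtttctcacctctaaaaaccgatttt
In the CycA flank the DRE is the longer run of capitals, and the BEAF-32 element is part of it and also stands alone to its right.

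stg (FBgn0003525, chr3R:29251826-29255800, minus strand), whose phosphatase removes the inhibitory phosphate from the mitotic kinase, had 4 summits in a window of 13.97 kb. This was the highest density of the 10 genes, at 28.6 per 100 kb, with E2f1 next at 27.7. The strongest, of 437.3 (chr3R:29251570-29251780), lay 136 bp past the 3′ end and 1239 bp from the nearest start, that of SP1029, with 260.0 and 166.1 in replicates 3 and 4. One of 373.5 (chr3R:29256211-29256432) lay 533 bp upstream of the outermost stg start and 152 bp from the start of CG45544, with 225.8 and 140.2. One of 286.6 lay in the intron of stg, 688 bp downstream of a start, with 162.3 and 115.8. Both replicates kept these 3 in the same order. The last, of 151.7, lay in an intron of CG45544, with 49.6 and 52.9. The 2 strings of the E2F site that a member window holds are both at stg, at the 3′ summit and in the intron, where they lie 92 and 17 bp from the summit. The string at the 3′ summit (chr3R:29251778-29251785) runs past the end of its called peak. Both strings are in capitals here.
stg downstream flank, chr3R:29251590-29251790, plus strand: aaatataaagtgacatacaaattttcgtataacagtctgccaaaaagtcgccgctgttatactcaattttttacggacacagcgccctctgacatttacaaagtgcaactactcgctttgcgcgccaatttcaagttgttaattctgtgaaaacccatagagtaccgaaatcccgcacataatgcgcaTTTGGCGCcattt
stg intron, chr3R:29254537-29254737, plus strand: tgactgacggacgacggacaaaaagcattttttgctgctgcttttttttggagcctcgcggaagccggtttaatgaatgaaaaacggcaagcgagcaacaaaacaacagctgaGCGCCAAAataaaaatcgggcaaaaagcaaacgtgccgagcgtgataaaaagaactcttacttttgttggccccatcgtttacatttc

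fzr (FBgn0262699, chrX:4667290-4679537, minus strand) had summits at both ends and none inside its span. Past its 3′ end by 65 bp stood a summit of 926.0 (chrX:4666871-4667415), at place 123 of the thresholded list and places 135 and 128 in replicates 3 and 4, with 528.3 and 392.0. The start nearest to it was that of CG3009, 525 bp away. Upstream of the outermost start, 182 bp away, was a summit of 455.4 (chrX:4679620-4679724), with 275.7 and 180.8 in the replicates. Next to it, in an adjoining peak, was one of 149.9 at 396 bp. There the replicates gave 194.1 and 31.2, at places 1232 and 12947. The second fzr start, of fzr-RB, had its nearest summit 2186 bp away. The sequences at the 3′ end and upstream of the start are shown for their strength and, in the third, for the Motif 1 core and the BEAF-32 element in capitals.
fzr downstream flank, chrX:4667125-4667289, plus strand: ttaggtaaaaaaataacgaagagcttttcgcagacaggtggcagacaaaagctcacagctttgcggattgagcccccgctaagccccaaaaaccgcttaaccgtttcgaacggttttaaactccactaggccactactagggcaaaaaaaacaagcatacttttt
fzr start, chrX:4679619-4679819, plus strand: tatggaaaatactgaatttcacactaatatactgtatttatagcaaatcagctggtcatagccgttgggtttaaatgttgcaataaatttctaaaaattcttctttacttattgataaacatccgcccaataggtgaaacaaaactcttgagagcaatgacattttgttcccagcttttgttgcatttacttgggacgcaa
fzr start, second summit, chrX:4679833-4679987, plus strand: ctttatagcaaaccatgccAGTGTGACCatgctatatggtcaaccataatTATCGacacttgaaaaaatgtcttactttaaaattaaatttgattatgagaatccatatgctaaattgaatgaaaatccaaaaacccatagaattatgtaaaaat

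The replicate lists were compared at every member summit, since these lists hold no other measure of error between replicates. Of the 36 peaks, 35 overlapped a peak of replicate 3 and all 36 a peak of replicate 4. Both replicates had an overlapping peak among their strongest 6294 for 27 (75.0%), against 70.8% of arm peaks. A single replicate had one for 9, and none of the members lacked one in both, against 2.30% of arm peaks. Overlap counts a neighbouring strong peak too, so a summit beside a stronger one can pass by it. The summits of matched replicate peaks lay a median of 13 bp (replicate 3) and 17 bp (replicate 4) from the thresholded summit.

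Signals were scaled to the median of the matched thresholded peaks of each replicate, 111.6 in replicate 3 and 80.7 in replicate 4. The log2 ratio of replicate 3 to replicate 4 then had an SD of 0.72 over the 35 member summits matched in both, against 0.69 over all 6217 peaks matched in both. It was within 1 SD of all peaks at 28 of the 35 members, against 74.1% of all peaks, and beyond 2 such SD at 3 weak summits: 2.17 at the second fzr summit, 1.70 at the E2f1 intron summit of 140.3 and -1.92 at the Archease summit. At the strong summits the ratio was near 0, with 0.02 at ND-B17, -0.19 at the E2f1 UTR summit, -0.04 at the fzr 3′ end and 0.18 at the stg 3′ end. This SD covers all matched peaks and not strong ones alone. By it, the ordering of summits that differ by less, such as 437.3 at stg and 401.7 at CycB, cannot be told from replicate error. Replicates 3 and 4 both had this stg summit higher, with 260.0 against 240.6 and 166.1 against 154.1. The orders given above for Dp, CycE and stg include such differences and rest only on their recurrence in both replicates.

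**Figure D3:**
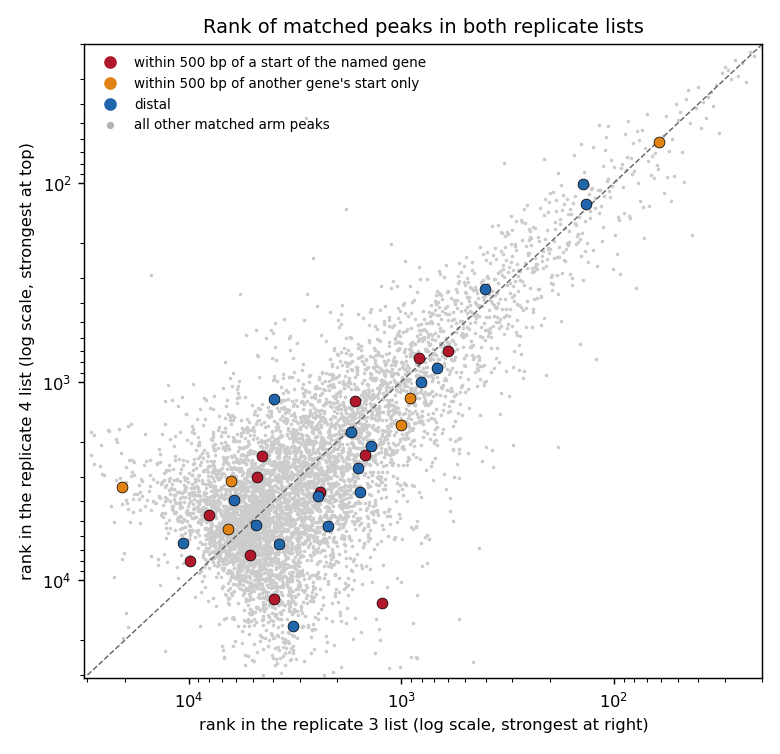
Points give the rank of the matched peak in the replicate 3 list (horizontal) and the replicate 4 list (vertical), both on log axes with the strongest peaks at the top right. Coloured points are the 35 member summits matched in both replicates, coloured by place as in the locus maps, and grey points are all other matched arm peaks, with the dashed line where ranks are equal. The strongest members lie near the line, and the red point far below it, at places 1232 and 12947, is the second fzr summit.

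Windows reaching 100 bp to each side of each summit were searched on both strands for 8 strings. The BEAF-32 element (CGATA) was in 13 of 36 member windows, against 28.7% of the 6273 arm windows. The Motif 1 core (GGTCACACT), a sequence of housekeeping promoters, was in 3, against 1.72%, at ND-B17, CycB3 and fzr. All 3 are promoter summits, while the arm windows include distal ones. The matches lay 75 to 91 bp from the summit, and windows of 50 bp to each side held none. The su(Hw) core (TGCATAC) was in 3, against 6.95%, and the GAGA sequence (GAGAGAG) in 2, against 7.38%. The DRE (TATCGATA), which contains the BEAF-32 element, was in 1, against 3.11%, and the CTCF core (AGGNGGCGC) in 1, against 1.55%, near InR. The E2F site, to which E2f1 and Dp bind, was searched in a pair of spellings. TTTGGCGC was in 2 windows, against 1.74%, and TTTCGCGC in none, against 0.956%. In all, 16 of the 36 windows held none of the 8 strings, against 57.2% of arm windows, among them that of the strong fzr 3′ summit. The mean GC content of member windows was 39.0%, against 37.4% for arm windows. A match describes the letters in a window and not the binding of a factor.

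Other genes of the cell cycle were described through a list of 89 genes that leaves out the 10 members, of which 88 matched the annotation. A promoter summit was present at 17 (19.3%), close to the background of 18.7%. By role, the counts were 4 of 15 cyclin and CDK genes, 3 of 7 genes of CDK inhibition or phosphorylation, 2 of 9 partners of E2F and RB, and 4 of 20 replication genes. They were 0 of 14 genes of the APC/C and SCF ubiquitin ligases, 2 of 14 mitotic kinase and checkpoint genes, 1 of 6 damage checkpoint genes and 1 of 3 growth genes. The background share in these small groups is the same 18.7%.

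The strongest were Mad1 (700.0), a spindle checkpoint gene, at 214 bp from a start, and grp (653.1), the fly Chk1 gene, at 410 bp. These summits were also within 500 bp of starts of Drep2 and squ. Among cyclin and CDK genes there were CycT (328.4), CycG (190.3), CycY (165.9) and Cdk1 (136.4), the mitotic kinase gene. The Cdk1 summit lay 358 bp from its start and within 500 bp of that of mRpS7. Among regulators of CDK phosphorylation there were twe (217.5), the Cdc25 gene of meiosis, and the phosphatase 2A genes Pp2A-29B (260.4) and tws (198.8). Partners of E2F and RB with a summit were mip40 (199.6) and Myb (150.0). Replication genes with one were chif (257.7), Mcm5 (165.4), dup (165.1) and Mcm7 (159.7). The summits of twe, mip40, Myb, Mcm5 and dup were also within 500 bp of starts of CG4935, Tab2, CG46440, Art1 and SRPK. The Mcm7 peak stood at place 3523 in replicate 3 and 20293 in replicate 4, and the chif peak at places 1006 and 10134. The others were Bub3 (278.1) and yki (174.9), the Hippo pathway coactivator gene, whose summits were also promoter summits of Cap-D2 and Gpat4.

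Genes without a promoter summit included Cdk2, Cdk4, Cdk5 and Cdk7, the inhibitory kinase genes Myt1 and Wee1, and rux and trbl. They also included E2f2, Rbf2, Caf1-55 and aly, so neither second family member of E2F or RB was called. The same held for Cdc16, Cdc23, Cdc27 and Cul1 among the ligases and for Cdc45, Cdc6, Cdc7 and Mcm2 in replication. It also held for Bub1, BubR1, Incenp and Mps1, for lok, mei-41, mus304 and p53, and for Myc and S6k. The median signal of promoter peaks, taking the strongest of each gene, was 296.5 at the 6 members. It was 198.8 at the 17 genes of the wider list and 217.3 for all genes with one. Taking the strongest favours genes with several promoter summits, as 4 of the 6 members had. Over all 12 promoter summits of the members the median was 182.9, against 199.1 for all promoter peaks of the arms.

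**Figure D4:**
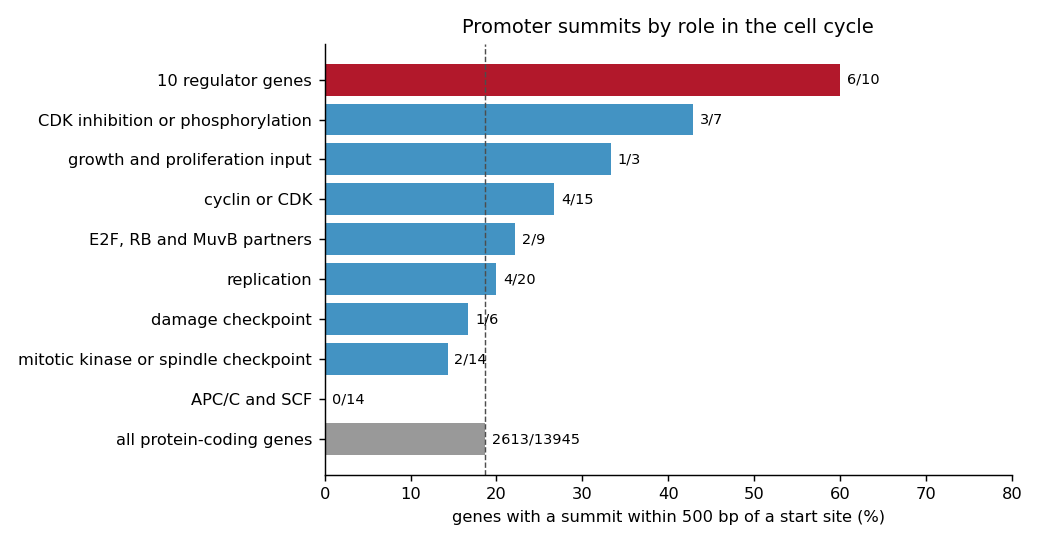
Bars give the percent of genes with a thresholded summit within 500 bp of an annotated start, for the 10 regulator genes (red), the roles of the wider list (blue) and all protein-coding genes (grey, also the dashed line at 18.7%). The number of genes with a summit over the number of genes stands at each bar, and the roles hold 3 to 20 genes.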

How the data were processed

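Binding was measured by ChIP-seq of mod(mdg4)-GFP in 2 biological replicates of whole larvae. Per the labels, the samples form 1 group. The deposited dm6 lists in narrowPeak layout were used. These are the authors' lists of peaks and background for each replicate and for the pooled reads, each called against a control library, and the list past the optimal IDR threshold derived from them. The sources used here do not give the caller, threshold or depth. The deposited signal is the authors' enrichment value on the scale of 1 list, so replicates were compared by rank or after scaling to a median, and no mean ± SD is given. The deposited -log10 q of each peak was read and used for no result. Lists on dm3 were not used.

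Summits were placed on Ensembl release 115 genes, whose spans of the 10 genes equal those of RefSeq, with coordinates counted from 1. A replicate peak matched by at least 1 bp, with the nearest summit taken. Sequences come from the RefSeq Release 6 genome, and none on 2R is shown. With 1 group, no test between conditions exists, and counts are set beside their background. Placement was tested on simulated data. Members and lists were chosen with earlier results of these data known. All 10 genes were named, with the gene nearest each summit, every listed gene with a promoter summit and up to 4 per role without one in alphabetical order. Alternatives were lists, flanks, distances, overlaps and windows. The software was Python 3.11.15, NumPy 2.4.6, pandas 2.3.3 and matplotlib 3.10.9.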

Additional observations from a re-analysis of the deposited data

How the results depend on the processing

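With the strongest 6294 peaks of 1 replicate in place of the thresholded list, the count of member summits was 34 in each. That of genes with a promoter summit was 6 in each, and that of promoter summits of any gene 14 to 20. Without replicate 4, CycB entered these 6 genes and dap left them. Without replicate 3 they were the 6 reported, but CycE stayed among them through a different summit from the reported one. Equal totals hid shifts by gene. Without replicate 4, the Rbf window held 1 summit and that of CycA none. Without replicate 3, the Dp window held 5 and that of CycB3 1. The wider list had 19 to 22 genes. For the median percentile of member summits among arm peaks, 60.6 as reported, the thresholded list was kept. With the matched signals of 1 replicate in place of the thresholded signals, this percentile was 57.5 to 66.2. Among the stronger part of the thresholded list (3147 peaks) 21 summits were left, 10 of them promoter summits of any gene, and 10 genes of the wider list. Among the strongest 12588 pooled peaks there were 68 summits and 26 genes of the wider list. These lists are shorter or longer by construction. Without E2f1, an alternative chosen after seeing the data, there were 22 summits with a median signal of 272.8. The median over all 36 summits had a spread of 20.5 between replicates. With motif windows of 50 bp to each side, 12 windows held a string, and the Motif 1 core and CTCF core were in none. The BEAF-32 element was in 9, and TTTGGCGC, the su(Hw) core, the GAGA sequence and the DRE were in 1 each. With the strongest overlapping replicate peak, also chosen after seeing the data, the count of members beyond 2 SD of all peaks was 3, with an SD of 0.61 in place of 0.69. The count of the 10 genes with a promoter summit was 4 in the stronger part of the list. It was also 4 among peaks strong in both replicates, and CycE and dap were the genes lost in each case. The count was 8 among the strongest 12588 pooled peaks, 5 and 7 with starts within 250 and 1000 bp, and 5 with the outermost start alone. Of 126 values under alternatives, 94 kept within 1.5 times or 1 SD of the reported one and 32 did not. Among these 126 were 70 counts by gene window, of which 19 did not. No paired analysis was possible because there is a single group. Without read counts the precision of single signals is unknown.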
